A study of Mus musculus with 6 samples.

Results

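The A-, B- and F-type cyclins and the enzymes that set the phosphorylation of their kinase partner were followed in mouse embryonic stem (ES) cells by RNA-seq. The set was chosen by name and held 10 genes of the 24043 gene rows in the table: the cyclin genes Ccna1, Ccna2, Ccnb1, Ccnb2 and Ccnf, the phosphatase genes Cdc25a, Cdc25b and Cdc25c, and the inhibitory kinase genes Wee1 and Pkmyt1. All 10 had a row, and 9 had a 6-library mean that reached 1 FPKM and were tested, the exception being Ccna1. FPKM is a fragment number scaled for gene length and library size, so levels can be set side by side between genes. The 2 groups were wild-type ES cells (3 libraries) and ES cells labelled Q-KO (3 libraries), whose genotype label says that no G1 cyclin is present. Both groups were grown in LIF with PD184352, which inhibits MEK, and CHIR99021, which inhibits GSK3. The labels name neither the strain nor the sex of either group, nor say whether the libraries of a group came from separate cultures or clones. The p-values therefore measure only the spread between these libraries, which may be technical in the Q-KO group. In the wild-type group the libraries also differed in Y-linked transcripts, as given below, so their spread is not only technical.

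Cyclin A binds CDK2 and CDK1 and serves DNA replication and the approach to mitosis, while cyclin B bound to CDK1 forms the kinase that drives cells into mitosis. WEE1 and PKMYT1 hold CDK1 inactive by phosphorylating it, and the CDC25 phosphatases take these phosphates off. Cyclin F binds no CDK and acts as the substrate receptor of an SCF ubiquitin ligase. Mouse ES cells are known for a short G1 phase and for a large share of cells in S phase, and the A- and B-type cyclins are made mainly from S phase to mitosis.

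Of the G1 cyclin genes, the D-type Ccnd1 and Ccnd3 and the E-type Ccne2 fell in the Q-KO group (log2 changes of -1.61, -2.76 and -0.97, limma adjusted p 0.0101 to 0.0182), and Ccnd2 stayed under 1 FPKM in every library. Thus 3 of the 4 tested G1 cyclin genes fell, against 1.02% of all genes tested. The count of 3 was 0 when Q-KO replicate 2 or 3 was left out, 2 when Q-KO replicate 1 was and 1 when wild-type replicate 1 was. Ccne1 ran against the label, at 65.3 to 87.3 FPKM in the Q-KO libraries and 37.5 to 55.9 in wild-type, with an adjusted p of 0.113. A model with a term for libraries that carry Y-linked transcripts, described next, put its log2 change at 0.98 and past the threshold (adjusted p = 0.0292), and Ccne2 then missed it (adjusted p = 0.0534). A gene-level FPKM covers every exon, so exons outside a deleted stretch still count, and these values do not show which alleles were deleted. Every direction below is therefore that of the libraries labelled Q-KO. Wild-type replicate 3 stood apart. It carried Y-linked transcripts, with a summed 100.9 FPKM over 5 genes, as did the Q-KO libraries (43.8 to 72.3), while all 5 genes had a listed 0 in the other wild-type libraries. In wild-type replicate 3 the median gene of chromosomes 8 and 11 was 0.25 higher (log2) than the mean of the other wild-type libraries on each of the 2 chromosomes. None of the 10 members lies on either chromosome, and on their chromosomes this median ranged from -0.11 to -0.03. The summed FPKM of a library was 525134 to 641715. The number of fragments is not given in the sources used here, and ratios of low values gave each other library a depth 1.10 to 1.22 times as large as wild-type replicate 1 has.

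The ES cell identity was checked on marker genes. The 8 ES cell markers included Pou5f1, Sox2 and Nanog. They summed to 5845 to 7249 FPKM in wild-type and 5700 to 10331 in Q-KO libraries. Of the 8, 0 passed the test, and 0 had an unadjusted p under 0.05. The model with the Y-linked term gave Zfp42 a log2 change of -1.85. In effect that model sets the Q-KO libraries against wild-type replicate 3 alone, where Zfp42 was highest (363 FPKM). Its other wild-type values, 76.6 and 78.9, lay inside the Q-KO range of 74.7 to 177. The 6 primitive endoderm markers summed to at most 2.13 FPKM in any library. The 7 fibroblast markers summed to 1.61 to 2.99 FPKM in wild-type and 0.951 to 6.48 in Q-KO libraries, the highest sum being in Q-KO replicate 1. Of the 8 trophectoderm markers 4 were tested and 2 rose, against 3.04% of all genes tested. These were Eomes (1.06 to 1.23 FPKM in wild-type and 5.25 to 5.85 in Q-KO libraries) and Tfap2c (15.5 to 18.9 and 28.2 to 37.9). The log2 changes of the other tested markers, Krt8 and Krt18, were -1.17 and -0.52 (limma adjusted p = 0.437 and 0.453). The sums over the list overlapped, at 23.4 to 58.7 and 42.0 to 49.0 FPKM, with Krt8 at 30.7 FPKM in wild-type replicate 3, and Cdx2, Gata3, Elf5 and Hand1 stayed under 1 FPKM everywhere. Of the 6 germ cell markers 5 were tested and 1 rose (Stra8), with sums of 27.9 to 186 FPKM in wild-type and 224 to 403 in Q-KO libraries. None of the markers in these 5 lists was listed at 0 in all 6 libraries. The germ cell sums, Eomes and Tfap2c, and in part the Y-linked transcripts, moved with the groups compared below, and their part in the results on the cyclins was not tested.

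Ccnb1 had the highest FPKM of the members in each of the 6 libraries, and the order of the others was nearly fixed. By group mean the order was Ccnb1, Ccna2, Ccnb2, Ccnf, Cdc25a, Wee1, Pkmyt1, Cdc25c, Cdc25b and Ccna1 in both groups. Ccnb1 spanned 181 to 192 FPKM in wild-type and 122 to 131 in Q-KO libraries, and did not overlap with Ccna2 in either group. Ccna2 and Ccnb2 overlapped in both groups, as did Ccnb2 and Ccnf, and Wee1 and Pkmyt1, so their ranges over libraries did not order these neighbours. Within each wild-type library the order was that of the means. The order within single libraries departed from that of the means in Q-KO replicate 1, where Ccnf (60.3 FPKM) stood just above Ccnb2 (60.1), and in Q-KO replicate 3, where Ccnb2 passed Ccna2 and Pkmyt1 passed Wee1.

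**Figure D1:**
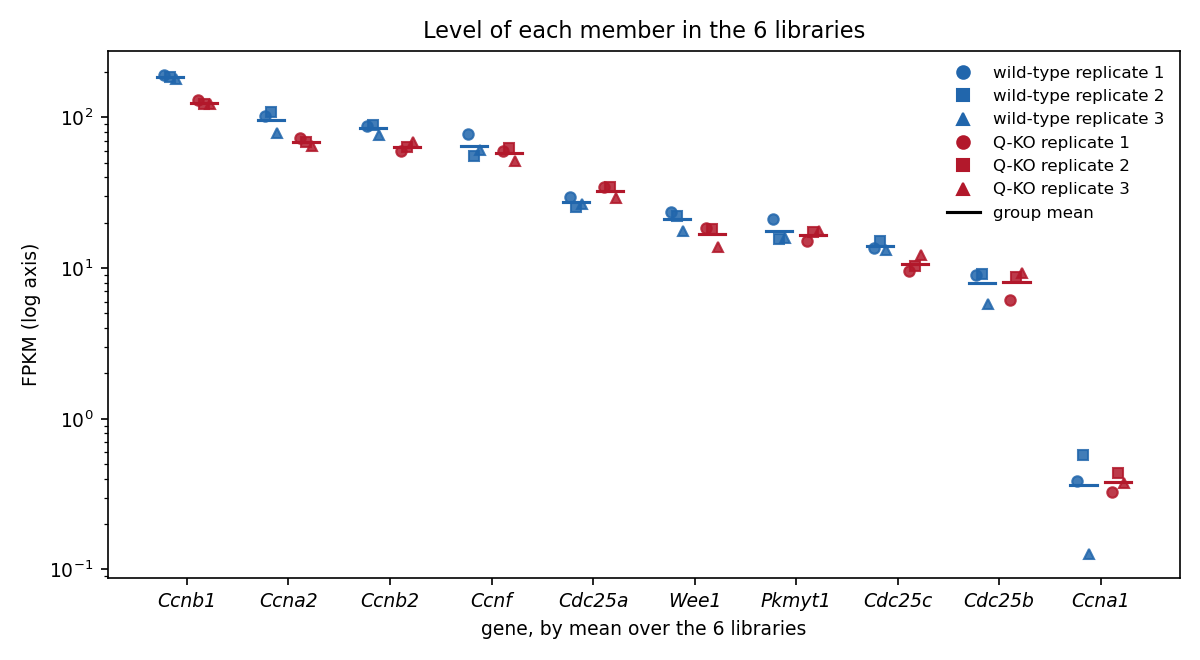
FPKM of the 10 members on a log axis, with 1 point per library (blue for wild-type, red for Q-KO, marker shape for the replicate number) and a bar at each group mean. Ccnb1 lies at 122 to 131 FPKM in the Q-KO libraries, below the 181 to 192 of wild-type, and Ccna1 lies under 1 FPKM in every library.

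Promoter sequences are shown for 4 members, 2 B-type cyclins that were lower in every Q-KO library and 2 members whose groups overlapped. RefSeq promoters on GRCm38.p6 (250 bases before the start of the gene and 50 after it) matched 6 of the 10 members. The 6 did not include Ccna2 and Cdc25c, which were also lower in every Q-KO library, nor Wee1 and Pkmyt1. The deposited values were made on mm9 and no coordinates were carried between the builds. Genes of late cell cycle phases are known to be controlled through a cell cycle genes homology region, TTTGAA, bound by the MuvB complexes, through CCAAT boxes bound by NF-Y, and in earlier phases through E2F sites. The letters searched, on both strands, were TTTGAA with its first variant TTTAAA and its second variant TTCGAA, the box CCAAT, and TTTGGCGC as an E2F-type motif. This list, and the combination counted below, were settled after the sequences had been read. Capitals mark every match, and the Ccnb1 promoter is chr13:100786437-100786736 (minus strand), that of Ccnb2 chr9:70421505-70421804 (minus), that of Ccnf chr17:24251360-24251659 (minus) and that of Cdc25a chr9:109875329-109875628 (plus).
Ccnb1: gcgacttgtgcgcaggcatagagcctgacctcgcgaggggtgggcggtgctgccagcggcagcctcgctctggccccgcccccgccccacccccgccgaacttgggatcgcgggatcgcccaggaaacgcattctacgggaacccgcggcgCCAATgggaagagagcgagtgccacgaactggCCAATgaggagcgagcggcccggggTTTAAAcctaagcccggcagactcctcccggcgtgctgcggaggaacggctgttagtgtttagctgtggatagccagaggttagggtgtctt
Ccnb2: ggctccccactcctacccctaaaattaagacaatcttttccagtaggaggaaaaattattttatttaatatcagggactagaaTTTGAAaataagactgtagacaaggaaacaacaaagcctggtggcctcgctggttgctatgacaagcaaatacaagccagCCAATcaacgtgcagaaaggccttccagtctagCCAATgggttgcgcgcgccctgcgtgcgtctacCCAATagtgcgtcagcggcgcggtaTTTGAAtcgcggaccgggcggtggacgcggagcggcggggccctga
Ccnf: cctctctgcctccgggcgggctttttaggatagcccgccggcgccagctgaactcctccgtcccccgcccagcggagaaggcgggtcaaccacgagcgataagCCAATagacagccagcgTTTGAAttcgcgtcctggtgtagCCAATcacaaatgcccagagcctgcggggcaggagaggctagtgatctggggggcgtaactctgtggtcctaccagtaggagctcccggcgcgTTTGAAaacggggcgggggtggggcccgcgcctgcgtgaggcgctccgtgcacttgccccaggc
Cdc25a: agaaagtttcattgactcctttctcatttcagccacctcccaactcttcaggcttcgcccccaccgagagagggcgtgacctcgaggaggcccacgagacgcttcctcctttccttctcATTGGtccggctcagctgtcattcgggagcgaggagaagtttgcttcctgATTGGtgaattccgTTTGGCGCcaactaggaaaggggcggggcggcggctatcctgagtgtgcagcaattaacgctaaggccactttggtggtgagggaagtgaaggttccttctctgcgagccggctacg

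The Ccnb1 window held TTTAAA with its first base 42 bases before the start and CCAAT at 99 and 67 bases before it. The Ccnb2 window held CCAAT at 87, 54 and 21 bases before the start and TTTGAA 167 bases before it and again just after it. The Ccnf window held TTTGAA at 130 and 14 bases and CCAAT at 147 and 107 bases before the start. The Cdc25a window held 2 CCAAT boxes on the opposite strand and the E2F-type motif, which starts 67 bases before the start and was the only match of that motif among the 6 members. Of all 32851 RefSeq promoters of this length, 17.9% held TTTGAA, 13.2% TTTAAA, 1.56% TTCGAA, 37.4% CCAAT, 11.7% at least 2 CCAAT boxes and 0.514% TTTGGCGC. Ccnb1, Ccnb2 and Ccnf each combined a homology region or variant with at least 2 CCAAT boxes, as did 3.33% of all promoters. Ccnf shares this combination with the B-type cyclins, and its level overlapped between the groups. In the other 2 windows, Cdc25b held TTCGAA after the start and 1 CCAAT box, and Ccna1 held 1 CCAAT box. No match of one motif overlapped a match of another, and a match is a run of letters, not a shown binding site.

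**Figure D2:**
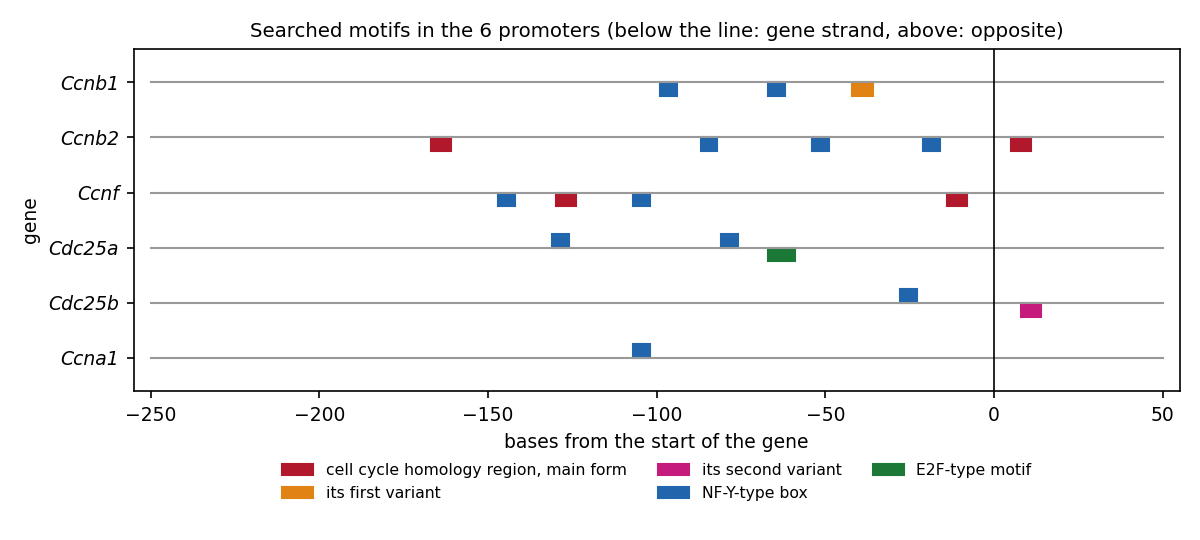
Matches of the searched motifs in the promoters of 6 members, with the distance from the start of the gene in bases on the horizontal axis, boxes under the line for the gene's strand and above it for the opposite strand. The NF-Y-type boxes are the CCAAT matches, the homology region is TTTGAA, its first variant TTTAAA and its second variant TTCGAA. Ccnb1, Ccnb2 and Ccnf hold a homology region or variant with 2 or 3 boxes on the gene's strand.

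The comparison asks how the mitotic cyclins and their regulators stand in ES cells labelled as lacking the G1 cyclins. The Ccnb1 transcript fell, and those of Ccna2, Ccnb2 and Cdc25c were lower in each Q-KO library than in any wild-type library without passing the test. Protein was not measured here. Differences were tested with limma on log2(FPKM + 1) over the 11573 genes that passed the filter, with Benjamini-Hochberg adjustment over all of them and a threshold of 0.05. Of the 9 tested members, 1 fell and 0 rose, where 4.06% of all genes tested passed, 1.02% having fallen and 3.04% having risen. Rises made up 74.9% of these calls on the deposited scale, 55.7% after median-of-ratios scaling and 54.0% after quantile normalization. In 4 of the 9 the groups did not overlap, all of them lower in Q-KO, against 9.44% of all genes tested for that direction and 18.2% for the opposite one. The unadjusted p was under 0.05 for the same 4 members, against 21.5% of all genes tested in either direction and 6.7% of them for lower values in Q-KO. The median log2 change was -0.32 over the 9 members and 0.07 over all genes tested. Median-of-ratios scaling moved the median of all genes to -0.04, and the members then had a median of -0.44, so that their distance from all genes was -0.39 as deposited and -0.40 after scaling. In bulk RNA, fewer cells in a phase and less RNA per cell cannot be told apart.

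Ccnb1, which encodes the main mitotic cyclin, gave 192, 186 and 181 FPKM in the wild-type group and 131, 122 and 122 in the Q-KO group, here and below in the order of replicates 1, 2 and 3. The 2 groups were each tight and lay well apart, with means of 186 ± 5.76 and 125 ± 5.02 FPKM (SD, n = 3 each). It fell with a log2 change of -0.57 (SE 0.12, limma adjusted p = 0.0370) and a ratio of means of 0.671. The call did not hold in any of the 6 fits that left out 1 library (adjusted p 0.0530 to 0.193), although the log2 change stayed between -0.60 and -0.55. With a term for libraries that carry Y-linked transcripts, which in effect sets the Q-KO libraries against wild-type replicate 3 alone, it was -0.53 (adjusted p = 0.119). The value of Ccnb1 is uncertain for another reason. In the GENCODE M21 transcripts 5 pseudogenes match its mRNA at 94.4% to 99.2% identity over 383 to 1294 bases. None of the 5 has a row in the FPKM table. How fragments that match several places were counted is not given in the sources used here.

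Ccnb2, the gene of the second mitotic B-type cyclin, gave 88.4, 89.0 and 76.7 FPKM in the wild-type group, with 60.1, 63.9 and 68.3 in the Q-KO group. Each Q-KO library was below the lowest wild-type library, wild-type replicate 3. The log2 change was -0.39 (SE 0.13) with a limma adjusted p of 0.126. It lay between -0.52 and -0.26 over 15 alternative settings and passed in 0 of them (adjusted p 0.0602 to 0.442). A further B-type cyclin gene, Ccnb3, which is known from meiosis, was at 0 to 0.00262 FPKM.

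Ccna2, the somatic A-type cyclin, gave 102, 108 and 78.9 FPKM in the wild-type group, with 73.4, 68.5 and 64.3 in the Q-KO group. The groups did not overlap, but wild-type replicate 3 lay closer to Q-KO replicate 1 than to the other wild-type libraries. The log2 change was -0.47 (SE 0.15, limma adjusted p = 0.128). It depended on wild-type replicate 3, since it was -0.61 and passed without that library (adjusted p = 0.0494), and was -0.20 (adjusted p = 0.568) in the model with the Y-linked term. Over the 15 alternatives the adjusted p ranged from 0.0494 to 0.568. In GENCODE M21, 12.5% of the exonic bases of Ccna2 lie in exons of Exosc9 on the opposite strand. Strand-specific counting was not stated, and Exosc9 was at 40.9 to 65.1 FPKM in wild-type and 47.7 to 54.2 in Q-KO libraries (log2 change -0.10). Ccna1, the A-type cyclin of male meiosis, gave 0.386, 0.573 and 0.127 FPKM in the wild-type group, with 0.326, 0.434 and 0.377 in the Q-KO group. The groups overlapped, while the summed germ cell markers given above did not. With no filter on low values Ccna1 had a log2 change of 0.03 (limma adjusted p = 0.920).

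Ccnf, the gene of cyclin F, gave 78.1, 55.8 and 61.0 FPKM in the wild-type group, with 60.3, 62.7 and 51.6 in the Q-KO group. The groups overlapped, and wild-type replicate 1 was the highest library. The log2 change was -0.15 (limma adjusted p = 0.643), with a 95% interval of -0.52 to 0.22, so a fall as large as that of Ccna2 lies inside the interval.

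Among the phosphatases, Cdc25c was lower and Cdc25a higher on average in the Q-KO libraries, and neither passed the test. Cdc25c, the phosphatase known for mitotic entry, gave 13.5, 15.2 and 13.1 FPKM in the wild-type group, with 9.60, 10.3 and 12.2 in the Q-KO group. The groups did not overlap, Q-KO replicate 3 being the nearest to wild-type, and the log2 change was -0.36 (SE 0.14, limma adjusted p = 0.200). GENCODE M21 places 12.7% of its exonic bases in exons of Gm3550 on the opposite strand, a gene with no row in the FPKM table, so its level is not known. Cdc25a, which acts at the start of S phase as well as at mitosis, gave 29.8, 25.3 and 26.8 FPKM in the wild-type group, with 34.3, 34.3 and 29.1 in the Q-KO group. Only Q-KO replicate 3 lay within the wild-type range, and the log2 change was 0.25 (95% interval -0.06 to 0.55, limma adjusted p = 0.328). Cdc25b gave 9.01, 9.18 and 5.75 FPKM in the wild-type group, with 6.19, 8.79 and 9.31 in the Q-KO group. Each group held 1 library well below its others, and the log2 change of 0.03 had the widest interval of the 9 members (-0.48 to 0.53) and turned negative after median-of-ratios scaling or quantile normalization.

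Of the kinases that oppose CDC25, Wee1 gave 23.6, 22.2 and 17.7 FPKM in the wild-type group, with 18.4, 18.2 and 13.8 in the Q-KO group. The ranges met at wild-type replicate 3, and the log2 change was -0.32 (95% interval -0.71 to 0.07, limma adjusted p = 0.326). With the term for Y-linked transcripts it was -0.08. Pkmyt1, whose product sits at membranes, gave 21.3, 15.6 and 15.8 FPKM in the wild-type group, with 15.02, 17.3 and 17.7 in the Q-KO group. The groups overlapped, and the log2 change was -0.06 (95% interval -0.43 to 0.31, limma adjusted p = 0.865). Its exons share 8.76% of their bases with Paqr4 on the opposite strand, which was at 1.18 to 2.97 FPKM over the 6 libraries.

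**Figure D3:**
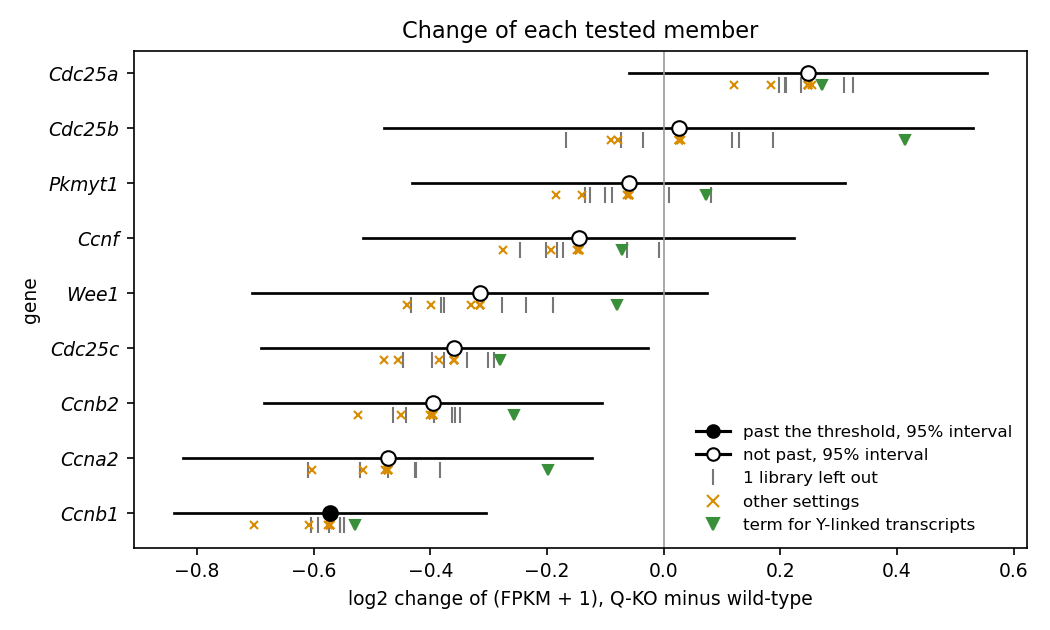
Log2 change of (FPKM + 1), Q-KO minus wild-type, for the 9 tested members with its 95% interval (filled circle where it passed the threshold), and under each circle the value in each alternative setting. Ccnb1 alone is filled, and its values under the alternatives stay between -0.70 and -0.53, while those of Cdc25b and Pkmyt1 lie on both sides of 0.

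Ratios within a library do not depend on how libraries were scaled to each other. With 3 libraries against 3, an exact two-sided permutation test cannot go below 0.1, so these are given as values. Ccnb1 over Ccnb2 was 2.17, 2.09 and 2.35 in wild-type and 2.18, 1.91 and 1.79 in Q-KO libraries, and Ccnb1 over Ccna2 was 1.71 to 2.29 and 1.78 to 1.90. Both ratios overlapped between the groups, as did Ccnb1 over Cdk1, the gene of its kinase partner (1.94 to 2.94 and 1.69 to 2.12). Ccnb1 over Ccnf was lower without overlap, at 2.46 to 3.33 in wild-type and 1.95 to 2.36 in Q-KO libraries. Against Pcna, the replication clamp, Ccna2, Ccnb1 and Ccnb2 were lower without overlap, and Ccnf was not. The same held before the division, and Pcna itself changed little (log2 change -0.10), so the ratios to Pcna are not separate support. Ccna2 over Pcna was 0.230, 0.251 and 0.221 in wild-type and 0.181, 0.196 and 0.162 in Q-KO libraries. Ccnb1 over Pcna was 0.430 to 0.505 in wild-type and 0.308 to 0.349 in Q-KO libraries, and Ccnb2 over Pcna 0.198 to 0.214 and 0.148 to 0.183. Ccnf over Pcna overlapped, at 0.129 to 0.175 and 0.130 to 0.179.

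Phosphatase transcripts outweighed kinase transcripts in every library, and by more in the Q-KO group. The summed FPKM of the 3 Cdc25 genes over that of Wee1 and Pkmyt1 was 1.16, 1.32 and 1.36 in wild-type and 1.501, 1.503 and 1.61 in Q-KO libraries. The groups did not overlap, although each of the 2 sums did (45.7 to 52.3 against 50.1 to 53.4 FPKM for Cdc25, and 33.5 to 44.9 against 31.5 to 35.6 FPKM for the kinases). Within the phosphatases, Cdc25a over Cdc25c was 1.67 to 2.20 in wild-type and 2.40 to 3.57 in Q-KO libraries, again without overlap.

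**Figure D4:**
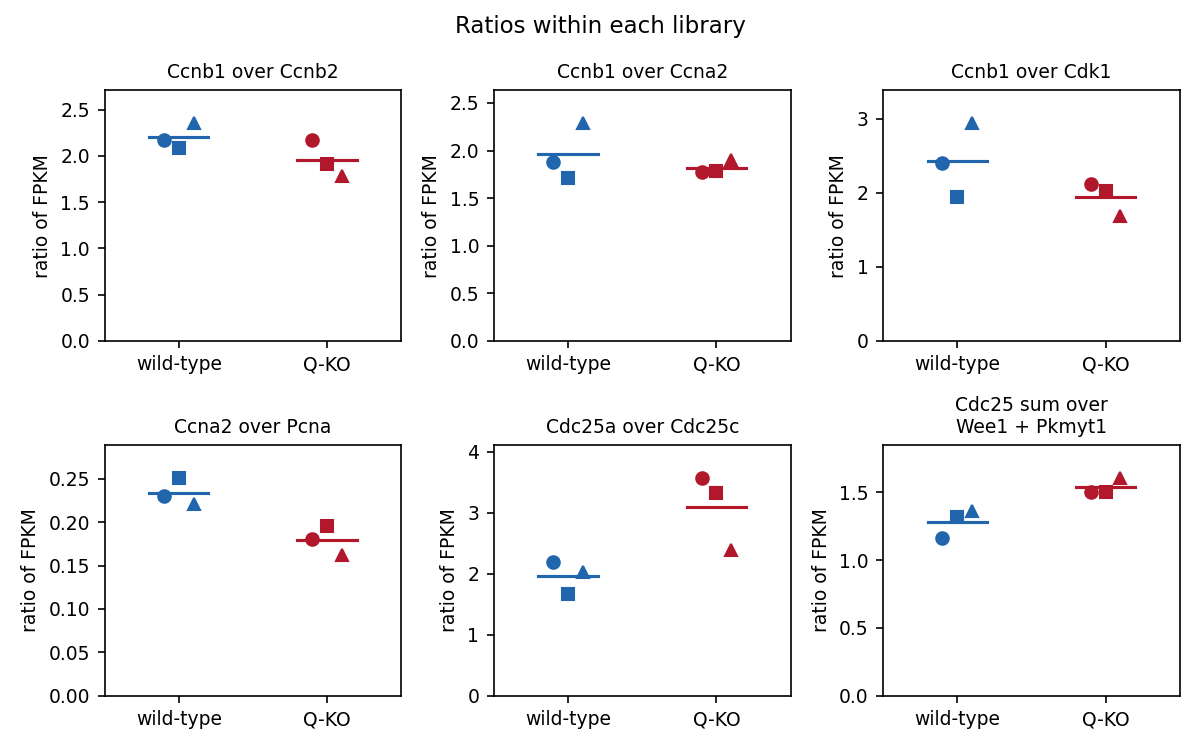
Ratios of FPKM within each library, with 1 point per library, a bar at each group mean and every axis starting at 0. Ccna2 over Pcna is lower (0.162 to 0.196 against 0.221 to 0.251) and the Cdc25 sum over Wee1 and Pkmyt1 higher (1.501 to 1.61 against 1.16 to 1.36) in the Q-KO libraries, as is Cdc25a over Cdc25c (2.40 to 3.57 against 1.67 to 2.20), and the plotted ratios of Ccnb1, to Ccnb2, Ccna2 and Cdk1, overlap.

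The other genes of the pathway were read from lists chosen by their known roles, with earlier results of these data known. Of 12 tested CDK partners and kinases of mitotic entry, 0 passed limma's test. An unadjusted p under 0.05 was found for 6 of the 12, against 21.5% of all genes tested. The count past the threshold depended on the scale, since Cks1b was called lower after median-of-ratios scaling, and Cks1b and Mastl after quantile normalization. Their most abundant member, Cks2, a small CDK-binding protein, gave 214, 254 and 215 FPKM in the wild-type group, with 163, 152 and 186 in the Q-KO group (log2 change -0.44, limma adjusted p = 0.126). In this list 5 genes were lower and 3 higher in Q-KO without overlap, against 9.44% and 18.2% of all genes tested. The following are named after their values were seen. Mastl, the Greatwall kinase, was at 11.5 to 12.3 FPKM in wild-type and 6.40 to 8.80 in Q-KO libraries, and its substrate gene Arpp19 was at 20.3 to 23.5 and 29.1 to 32.2 FPKM (limma adjusted p = 0.0791 and 0.0890). Cdk1 was at 61.4 to 95.6 and 60.4 to 72.3 FPKM, so its groups overlapped, and Cdk2, the partner of cyclin A in S phase, was at 57.2 to 66.9 and 72.0 to 77.5 FPKM (limma adjusted p = 0.438 and 0.261).

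Of 16 transcription regulators of G2 and M phase genes, 1 fell and 0 rose, against 1.02% and 3.04% of all genes tested. This was Rbl1, which encodes the pocket protein p107, at 11.3 ± 0.27 FPKM in wild-type and 6.73 ± 1.06 in Q-KO libraries (SD, n = 3 each, log2 change -0.68, limma adjusted p = 0.0490), a call that was lost in each of the 6 fits without 1 library. It was also lost with no filter, a filter at 5 FPKM, no intensity trend, the replicate block and the Y-linked term, with which Rbbp4 was instead called higher (log2 change 0.73, adjusted p = 0.0445). Of 28 genes for the degradation of cyclins and CDC25, 0 passed, and 5 had an unadjusted p under 0.05, against 21.5% of all genes tested. The most abundant, Skp1a, had a log2 change of -0.22 (limma adjusted p = 0.463). Without wild-type replicate 3, 1 gene of this list rose and 1 fell. Of 9 genes for reported substrates of cyclin F, 2 fell, against 1.02% of all genes tested. These were E2f8, a repressor of the E2F family (log2 change -1.18, limma adjusted p = 0.0488), and Nusap1, a spindle protein (-0.81, adjusted p = 0.0155), and 0 of the 9 passed without wild-type replicate 1, Q-KO replicate 1 or Q-KO replicate 2. The count was 1 without wild-type replicate 2 or Q-KO replicate 3, with no filter on low values, and when a mean of 5 FPKM was required. With the Y-linked term Nusap1 was called lower and Rrm2 higher, and E2f8 missed the threshold (adjusted p = 0.148). The lists share genes. Nusap1 is also counted among the mitosis genes below, Rrm2, Cdc6 and Slbp among the S phase genes, and Fzr1 among the degradation genes.

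Set beside genes of mitosis and of S phase, the members' median of -0.32 lay between the 2 lists. All 22 tested mitosis genes had a log2 change below 0, as had 40.7% of all genes tested, and the median was -0.65. Of the 22, 8 fell, against 1.02% of all genes tested. The groups did not overlap for 17 of the 22, all lower in Q-KO, against 4 of the 9 members and 9.44% of all genes tested. Among the genes that passed, the log2 changes furthest from 0 were those of the kinetochore gene Cenpf (-1.20), the spindle gene Hmmr (-1.14), the proliferation marker Mki67 (-1.04), the topoisomerase gene Top2a (-1.01) and the Aurora kinase gene Aurkb (-0.82). Leaving out wild-type replicate 1 gave a count of 2 in place of 8, and leaving out wild-type replicate 3 gave 13. The count was 4, 0 and 3 when Q-KO replicates 1, 2 and 3 were left out in turn, 3 with the Y-linked term, and 14 after median-of-ratios scaling. Of 24 S phase genes 0 passed (6 had an unadjusted p under 0.05, against 21.5% of all genes tested) and the median was -0.06. Other settings gave calls in both directions: Mcm10 was lower after either scaling and in the robust fit, Pola1 was lower after median-of-ratios scaling, and Rrm2 and Rpa2 were higher with the Y-linked term. Pcna, the most abundant, was at 358 to 445 FPKM in wild-type and 349 to 406 in Q-KO libraries (limma adjusted p = 0.745). The difference between the members and either list was not tested.

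**Figure D5:**
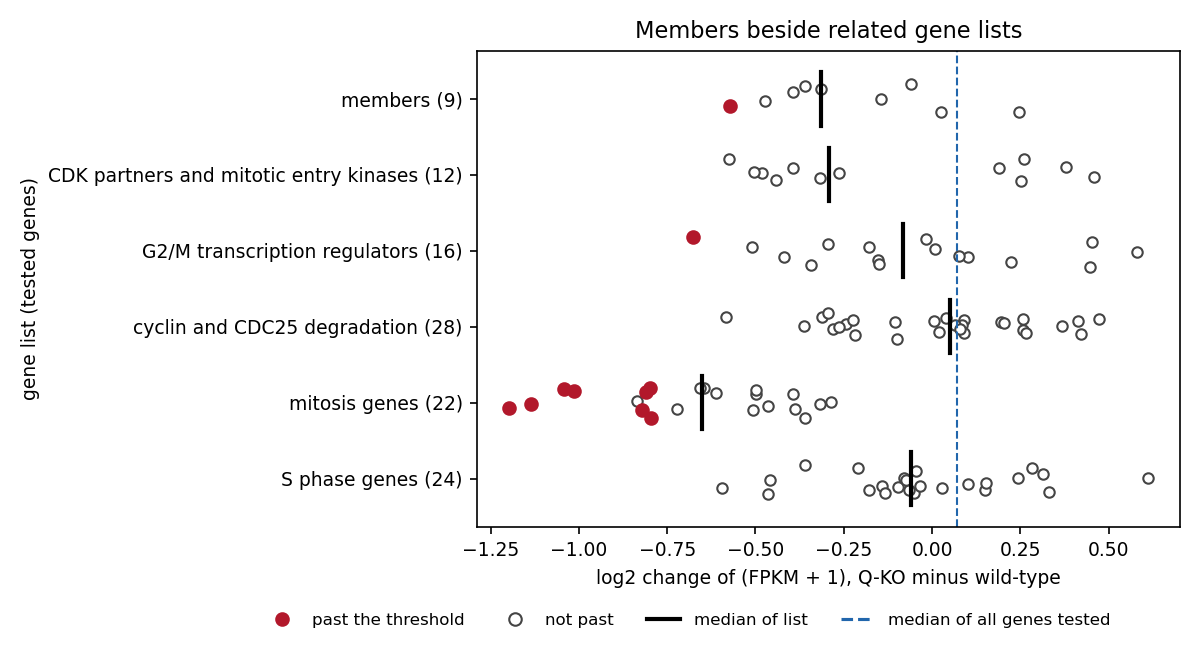
Log2 change of (FPKM + 1), Q-KO minus wild-type, with 1 point per tested gene (filled where it passed the threshold), a bar at the median of each list and a dashed line at the median of all genes tested (0.07). The members' median is -0.32, that of the mitosis genes -0.65 and that of the S phase genes -0.06.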

How the data were processed

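RNA-seq was done on total RNA of 3 wild-type and 3 Q-KO libraries of mouse ES cells. Groups and replicate numbers were taken from the sample titles. The authors deposited 1 table of FPKM values per gene symbol. CASAVA, bcl2fastq 2.16, STAR 2.5, Cufflinks and the build mm9 were used, per the submitters' processing notes, which give no roles. Annotation, strandedness and depth have no entry there (not given in the sources used here), so no counting interval was computed. After 1 stray header row was dropped, 24043 gene rows remained.

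The comparison took log2(FPKM + 1) of the 11573 genes whose mean reached 1 FPKM. The test was limma's moderated test (limma 3.58.1, R 4.3.3), two-sided and with an intensity trend, and p-values were adjusted over all genes by Benjamini-Hochberg, with 0.05 as the threshold. The log2 scale understates changes of low genes. The code of the fit was checked on simulated data drawn independently for each gene and library. Such data hold no shift shared by the genes of a library, so the check does not bear on how firm the calls are. Close copies (at least 90% identity over 300 bases) were sought with blastn 2.17.0 in GENCODE M21 transcripts.

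The members, gene lists and ratios were chosen with earlier results of these data known. All 10 members are named, and from each other list up to 5 genes past the threshold with the largest change, or the most abundant tested gene where none passed. Genes outside this rule were chosen with their values in view. The fit was repeated with another pseudocount (0.1), without a filter, with a filter at 5 FPKM, after quantile normalization or median-of-ratios scaling, robustly, without the trend, blocked on replicate number, with a term for Y-linked transcripts, without each library in turn, and requiring a 2-fold change.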

Additional observations from a re-analysis of the deposited data

How the results depend on the processing

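Of the 9 tested members, the count past the threshold was 1 as deposited and also with either scaling, a robust fit, another pseudocount (0.1), a filter at 5 FPKM or none. It was 0 with no intensity trend (Ccnb1 adjusted p = 0.0526), with the replicate block (0.0818), with the term for Y-linked transcripts and with a minimum of a 2-fold change, and 0 to 1 when 1 library was left out. The 1 there was Ccna2, without wild-type replicate 3. Over all genes the count of 470 was 266 with a filter at 5 FPKM (fewer genes were tested), 894 with the term for Y-linked transcripts, 280 with a minimum of a 2-fold change and 28 to 566 when 1 library was left out. Leaving out wild-type replicate 1 gave 94, and leaving out Q-KO replicates 1, 2 and 3 in turn gave 187, 28 and 85. Apart from the changes named, the cause was not tested.

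The log2 change of Cdc25b, which never passed, was -0.0907 with median-of-ratios scaling and -0.0786 with quantile normalization in place of 0.03, and it ranged from -0.17 to 0.187 when 1 library was left out (below 0 without wild-type replicate 3 and without Q-KO replicate 2 or 3). It was 0.413 with the term for Y-linked transcripts. That of Pkmyt1 was 0.072 with the term for Y-linked transcripts in place of -0.06 and ranged from -0.135 to 0.0812 when 1 library was left out (above 0 without replicate 1 of either group), and that of Pcna was 0.10 with that term. The 7 other tested members kept their sign in all 15 alternatives run. Whether the replicate numbers pair the libraries is not known. Deviations from the group means correlated across genes at -0.03, 0.01 and 0.02 for numbers 1, 2 and 3. For unlike numbers the correlation was, for example, 0.17 (wild-type 1 with Q-KO 2) and -0.13 (wild-type 3 with Q-KO 2). With so few libraries these values cannot show whether a culture or day was shared. The block gave 333 calls over all genes.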

Other observations

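The genes whose profile over the 6 libraries was nearest to that of a cyclin were sought by the Euclidean distance between log2(FPKM + 1) values centred on each gene's mean, among the 7679 named genes whose mean reached 5 FPKM. For Ccnb1 they were Hk1, Smc1a, Tpx2 and Commd10, at distances of 0.162, 0.163, 0.182 and 0.189. For Ccna2 they were Ipo5, Zfp472, Idi1 and Zfp748, at 0.107 to 0.133. For Ccnb2 they were Oip5, Nars, Mdm1 and Pank4, at 0.0823 to 0.127. The cyclins were not each other's nearest genes: Ccnb2 ranked 95 and Ccna2 ranked 108 by distance from Ccnb1 (0.321 and 0.330). Cdc25c ranked 9 by distance from Ccnb2 (0.167). These distances over 6 libraries carry no test.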
